A study of Mus musculus with 10 samples.

Results

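The genes described here are 38 members of the interferon response and of class I antigen presentation, out of 47729 genes in a count table of mouse forelimb buds. They were taken as a list of gene names, chosen with earlier results of these data known. All 38 had counts enough to be tested. Total RNA was sequenced in 10 libraries, each from the forelimb buds of a separate embryo at E11.5 to E12 (somite stages 49 to 51), with 5 control and 5 knockout embryos from litters A to D. The 5 knockouts carried Prx1Cre, a Cre recombinase whose promoter is active in limb bud mesenchyme, together with 2 floxed alleles of Cxxc1. The protein CXXC1 recognizes CpG without methylation and is a subunit of SET1, a methyltransferase of lysine 4 on histone H3. Among the controls, number 1 had Prx1Cre and 1 floxed allele, numbers 2 and 4 lacked Cre and had 1 floxed allele, and number 3 lacked Cre and had 2 floxed alleles. Number 5 had 2 floxed alleles and a question mark after its Cre, so that every control had at least 1 floxed allele. Litter A gave controls 1 and 2 and knockouts 1 and 2, and each of the litters B, C and D gave 1 control and 1 knockout of the same number. The bud also holds ectoderm, vessels, blood and macrophages, and the cells in which the deletion took place were not measured.

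Interferons are secreted proteins that cells make after sensing foreign or misplaced nucleic acid. Type I interferons bind the receptor IFNAR, whose kinases JAK1 and TYK2 phosphorylate STAT proteins, STAT2 among them. These join IRF9 to form the complex ISGF3, which binds the interferon-stimulated response element (ISRE) in the promoters of interferon-stimulated genes. Interferon gamma acts on the gamma-activated sequence (GAS), and raises the genes of class I antigen presentation. In that pathway the immunoproteasome cuts proteins into peptides, the TAP transporter carries them into the endoplasmic reticulum, and class I heavy chains with beta-2 microglobulin display them on the cell surface.

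Library totals ran from 33274911 to 49880815 counts. Cxxc1 itself stood at 96.7 ± 6.88 CPM (counts per 1000000 counts of the library, SD, n = 5) in controls and 75.2 ± 1.23 CPM (n = 5) in knockouts, a log2 fold change of -0.36 (SE 0.05, adjusted p = 0.000144), and was lower in every knockout than in any control. The count covers the whole gene, and the floxed exons were not named in the labels. All 9 limb mesenchyme markers examined were detected, and their summed level was 2230 to 2420 CPM in controls and 1390 to 1686 CPM in knockouts. Summed macrophage markers ran the other way, from 147 to 171 CPM in controls and from 330 to 379 CPM in knockouts. Xist was high in control 1 (4114 CPM) and in knockout 3 (2290 CPM), while the remaining 8 libraries had 0.360 to 5.48 CPM.

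The members did not move as a block. In knockouts 21 of the 38 were higher (55.3%; 18.1% of the 20562 genes tested were higher), 4 were lower (10.5%; 17.1% of all genes tested), and 13 did not pass the test. A change was called at a Benjamini-Hochberg adjusted p below 0.05 in edgeR's quasi-likelihood test over all genes tested. Because the list was chosen with earlier results known, its shares are set beside those of all genes as description only. The median log2 fold change of the members was 0.64, with a range of -0.92 to 2.85, and that of all genes tested was -0.001. Every knockout lay above every control for 15 members (39.5%; 13.0% of all genes tested), below every control for 3 members (7.89%; 12.4% of all genes tested), and the groups overlapped for 20. The rises included the peptide transporter gene Tap1, the immunoproteasome genes Psmb8 and Psmb9, and the antiviral genes Oasl2, Bst2 and Ifitm3. The 4 members that fell were Stat2, Ifit3, Ifitm1 and Ifitm2. Isg15, Ifit1, Ifit2, Eif2ak2 and Adar were among the 13 that did not pass the test.

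Most of the rises were at low levels. Of the 10 members under 1 CPM on average in controls, 8 were higher and 0 lower, and of the 18 between 1 and 10 CPM, 11 were higher and 1 lower. Of the 8, Oas2, Usp18 and Ifi27 were under the level of the count filter (0.217 CPM) in at least 1 control and at it in all 5 knockouts. Controls at that level were 1 of 5 for Oas2, 2 of 5 for Ifi27 and 4 of 5 for Usp18. The controls alone would not have met the filter, so the direction of these calls is partly set by it, least so for Usp18. Of the other 35 members, 18 were higher (51.4%; 18.1% of all genes tested) and 4 lower (11.4%; 17.1% of all genes tested). Of the 10 members at 10 CPM or more, 2 were higher (Ifitm3 and B2m) and 3 lower (Stat2, Ifitm1 and Ifitm2). The shares of all genes tested that were called at each of these levels were not counted. The tallies by level therefore have no background to be set against. The summed level of all 38 was 398 to 429 CPM in controls and 447 to 493 CPM in knockouts. In bulk tissue, more cells of a type that expresses a gene and more RNA of it per cell cannot be told apart. Of the 21 members called higher, 19 were higher in the knockouts of all 4 litters, and Ifi27 and H2-D1 in 3 of 4. All 4 members called lower were lower in every litter. These members were picked by a test on the same libraries, so agreement among litters is in part built in. The share for all called genes was not counted. Without litter A, which leaves 3 embryos against 3, 12 members were higher and 3 lower, against 9.73% and 9.83% of the 20566 genes tested in that fit.

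**Figure D1:**
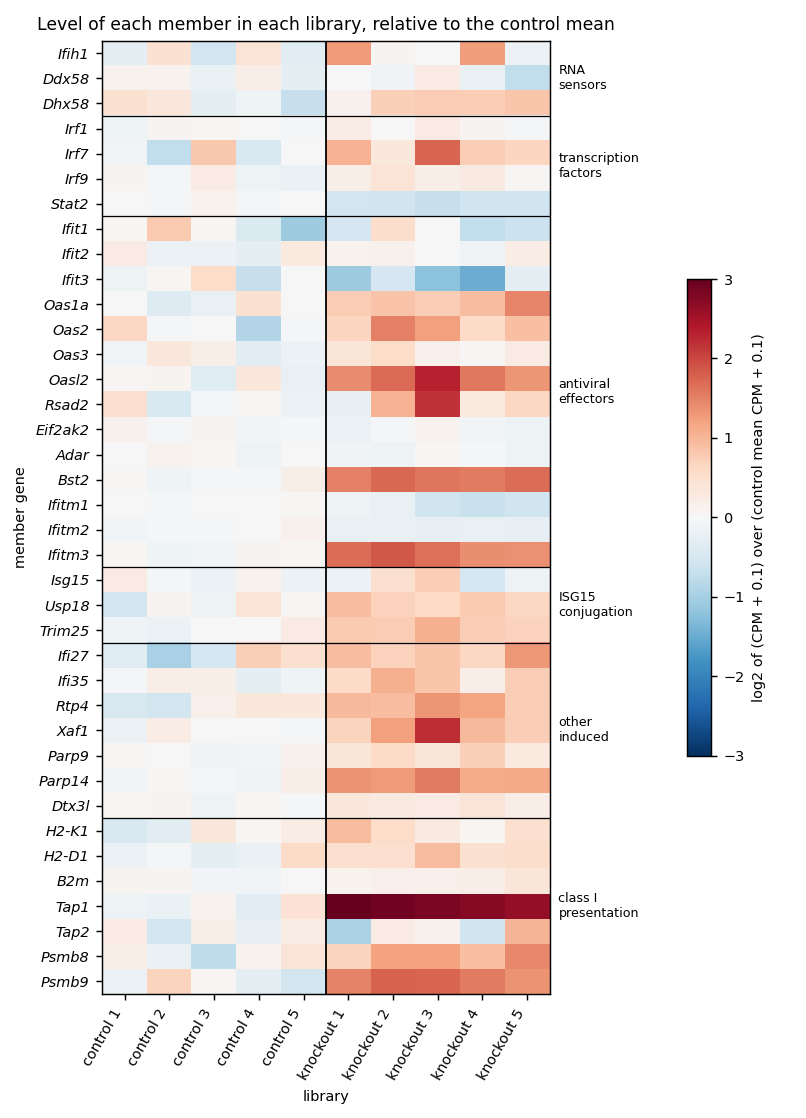
Heat map of the 38 members (rows, grouped by role) in the 10 libraries (columns), coloured by the log2 ratio of CPM + 0.1 in each library to the control mean + 0.1. Tap1 is the darkest row in all 5 knockouts, rows of raised genes stand beside rows without a common direction, and Stat2, Ifit3, Ifitm1 and Ifitm2 are blue in the knockouts.

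**Figure D2:**
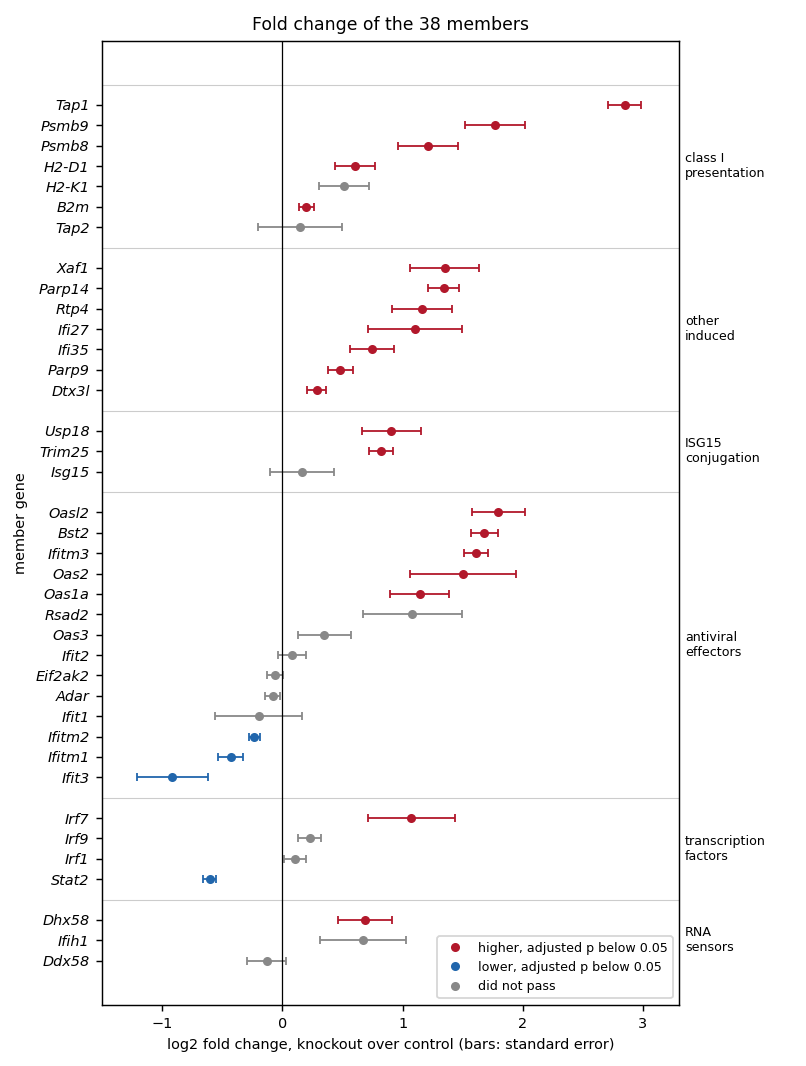
Log2 fold change of each member, knockout over control, with bars of 1 standard error, grouped by role and coloured by whether the member passed an adjusted p of 0.05. Values run from -0.92 for Ifit3 to 2.85 for Tap1, and 13 of the 38 points are grey because they did not pass.

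The ISRE letters are shown for 6 members because their promoters share them while their transcripts went in different directions. They were picked for this from the 14 members with these letters. Each run is the 160 bases before the RefSeq start site on GRCm38.p6, read 5′ to 3′ on the gene's strand, with letters that match the ISRE core (GAAA, any 2 bases, then GAAA) on either strand in capitals and overlapping matches run together. Isg15 and Ifit1 did not pass the test, Ifit3 and Ifitm2 were lower, and Bst2 and Oas1a were higher. Ifit3, Ifitm2 and Oas1a share 61.8%, 55.5% and 68.8% of their exon sequence with other genes in runs of 31 bases, and Bst2 0%. The calls of Ifit3 and Oas1a were lost in 9 and 1 of 22 alternatives. The windows are chr4:156200819-156200978 (minus strand) for Isg15, chr19:34640729-34640888 (plus) for Ifit1, chr19:34583369-34583528 (plus) for Ifit3, chr7:140955962-140956121 (minus) for Ifitm2, chr8:71537473-71537632 (minus) for Bst2 and chr5:120907526-120907685 (minus) for Oas1a.
Isg15: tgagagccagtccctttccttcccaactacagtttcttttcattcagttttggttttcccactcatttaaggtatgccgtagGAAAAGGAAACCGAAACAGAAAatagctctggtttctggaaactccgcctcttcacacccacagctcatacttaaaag
Ifit1: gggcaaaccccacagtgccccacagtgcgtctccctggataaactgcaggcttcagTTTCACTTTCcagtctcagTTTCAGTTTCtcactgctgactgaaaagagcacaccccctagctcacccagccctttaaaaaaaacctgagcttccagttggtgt
Ifit3: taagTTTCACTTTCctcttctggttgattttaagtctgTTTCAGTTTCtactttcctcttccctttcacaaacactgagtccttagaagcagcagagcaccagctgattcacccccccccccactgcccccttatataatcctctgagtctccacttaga
Ifitm2: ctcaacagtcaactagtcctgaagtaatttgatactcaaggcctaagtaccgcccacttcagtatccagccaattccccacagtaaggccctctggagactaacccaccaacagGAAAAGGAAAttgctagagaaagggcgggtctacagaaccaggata
Bst2: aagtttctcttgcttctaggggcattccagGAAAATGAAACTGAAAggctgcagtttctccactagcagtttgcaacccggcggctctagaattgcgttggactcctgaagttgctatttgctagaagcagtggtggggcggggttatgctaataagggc
Oas1a: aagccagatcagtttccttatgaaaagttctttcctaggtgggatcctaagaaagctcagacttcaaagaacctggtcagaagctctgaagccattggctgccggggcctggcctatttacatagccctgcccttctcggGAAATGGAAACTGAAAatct

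A RefSeq promoter window, from 250 bases before to 50 bases after the start site, was held for 30 of the 38 members. The ISRE core letters, on either strand, were in the windows of 14 of these 30 (46.7%), and of 3.99% of all 27025 genes with a window. By direction, 4 of 14 members that were higher had them (B2m, Oas1a, Ifitm3 and Bst2), 3 of 4 that were lower (Ifitm2, Stat2 and Ifit3), and 7 of 12 that did not pass (Ifih1, Ddx58, Isg15, Oas3, Rsad2, Eif2ak2 and Ifit1). The 8 members without a window were Tap2, which did not pass, and Parp14, Oas2, Dhx58, Rtp4, Parp9, Ifi27 and Usp18, which were higher. Only 14 of the 21 members that were higher were therefore searched, so the counts by direction cannot be compared. GAS letters, TTCNNNGAA on either strand, were in the windows of 9 of 30 members (30%), and of 9.55% of all genes. Of the 9, 5 belonged to members that were higher, 0 to members that were lower and 4 to members that did not pass. These matches describe the letters alone, since no binding was measured.

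The interferon genes themselves were at the limit of detection. Of 21 interferon ligand genes, 0 had counts enough to be tested and 15 were at 0 in all 10 libraries, among them Ifnb1 and Ifng. All ligand genes together gave 1 to 8 counts in each control library and 3 to 15 in each knockout. Ifnz gave 9 of 19 ligand counts over the controls and 31 of 36 over the knockouts. A count of 0 allows up to 3 counts, which is 0.0573 CPM where depth was greatest and 0.0905 CPM where it was least.

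Among 11 genes for interferon receptors, their kinases and the STAT proteins, 3 were higher, 3 lower and 5 did not pass. These are 27.3% higher and 27.3% lower, against 18.1% and 17.1% of all genes tested. The median log2 fold change was -0.01. Ifnar1, a chain of the type I receptor, fell from 113 ± 11.3 to 92 ± 4.66 CPM, a log2 fold change of -0.30 (SE 0.07, adjusted p = 0.00428). Jak2, a kinase of the interferon gamma receptor, fell by 0.45 on the log2 scale (SE 0.05, adjusted p = 3.94e-05), and Jak1 fell by 0.25 (SE 0.07, adjusted p = 0.0101). Il10rb, a chain of the interferon lambda and interleukin-10 receptors, rose by a log2 fold change of 0.68 (SE 0.13, adjusted p = 0.00127). The call of Jak1 was lost without litter A.

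The 3 RNA sensors among the members detect viral or misplaced double-stranded RNA in the cytoplasm. Ddx58 (chr4:40203773-40239828), which encodes RIG-I and had the highest level per kilobase of the 3 (1.44 CPM per kb in controls), measured 10.9, 11.0, 8.88, 11.6 and 8.48 CPM in controls 1 to 5 and 10.2, 9.47, 12.1, 8.75 and 6.05 CPM in knockouts 1 to 5. The groups overlapped, and both the highest and the lowest library were knockouts. For Ddx58 the log2 fold change was -0.13 (SE 0.16, adjusted p = 0.583). Dhx58 (chr11:100694884-100704271), which encodes the regulator LGP2, measured 2.78, 2.55, 1.65, 1.84 and 1.21 CPM in controls and 2.19, 3.34, 3.50, 3.43 and 3.67 CPM in knockouts. Knockout 1 lay among the controls and the other 4 knockouts lay above all of them. In the test, Dhx58 had a log2 fold change of 0.68 (SE 0.23, adjusted p = 0.033), and the adjusted p was 0.0481 with litter as a block and 0.0667 with the replicate number as a block. The call was lost in 8 of 22 alternatives, 7 of them without a single library (controls 3, 4 and 5 and knockouts 2 to 5), where the log2 fold change was 0.55 to 0.67 and the adjusted p 0.0604 to 0.0764. Ifih1, which encodes MDA5, averaged 1.17 ± 0.418 CPM in controls against 1.86 ± 0.994 CPM in knockouts and did not pass (adjusted p = 0.173).

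Other nucleic acid sensing genes gave 5 higher (27.8%; 18.1% of all genes tested), 1 lower (5.56%; 17.1% of all genes tested) and 12 not passing of 18 tested. Their median log2 fold change was 0.13. Tmem173, which encodes the DNA-sensing adaptor STING, rose from 26.9 ± 2.92 to 52.7 ± 4.86 CPM, a log2 fold change of 0.97 (SE 0.08, adjusted p = 4.38e-06). Cgas, which makes the messenger that STING binds, rose from 2.17 ± 0.297 to 3.11 ± 0.137 CPM, a log2 fold change of 0.52 (SE 0.12, adjusted p = 0.00662), a call lost without litter A. Tlr9, an endosomal DNA receptor, rose by 1.55 (SE 0.29, adjusted p = 0.00133), with 4 of 5 controls at the level of the count filter. Rnaseh2c, a subunit of the nuclease that removes RNA from RNA-DNA hybrids, fell by 0.39 on the log2 scale (SE 0.05, adjusted p = 6.56e-05). Among 8 inhibitors of interferon signalling, 1 was higher (12.5%; 18.1% of all genes tested) and 1 lower (12.5%; 17.1% of all genes tested). Ptpn6, a phosphatase most abundant in blood cells, rose from 6.17 ± 2.34 to 13 ± 2.71 CPM, a log2 fold change of 1.08 (SE 0.25, adjusted p = 0.00502), and its log2 fold change was 0.62 without litter A.

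Of the 4 transcription factor genes of the response, Irf7 was higher and Stat2 lower. Stat2 (chr10:128270559-128292849), the STAT protein particular to the type I and type III interferon complex, measured 22.4, 21.7, 24.1, 21.9 and 22.5 CPM in controls 1 to 5 and 15.3, 14.9, 13.9, 14.9 and 14.9 CPM in knockouts 1 to 5. All 5 knockouts lay below all 5 controls with a narrow spread in each group. Its log2 fold change was -0.61 (SE 0.06, adjusted p = 6.71e-06). Irf9 (chr14:55603571-55610030), its DNA-binding partner, measured 17.9, 16.3, 20.02, 15.1 and 14.6 CPM in controls and 19.2, 22.4, 18.9, 20.3 and 17.3 CPM in knockouts. Controls 1 and 3 lay among the knockouts, and the log2 fold change of 0.23 (SE 0.10) did not pass (adjusted p = 0.0908), while without control 3 it was 0.30 with an adjusted p of 0.0249.

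Irf7 (chr7:141262706-141266481), the factor that amplifies interferon alpha production, measured 0.570, 0.325, 1.14, 0.417 and 0.607 CPM in controls and 1.37, 0.783, 2.29, 1.08 and 1.02 CPM in knockouts. Knockout 3 was the highest, and control 3 lay above 3 of the knockouts. For Irf7 the log2 fold change of 1.07 (SE 0.36, adjusted p = 0.0371) kept its sign in every alternative but lost the call in 9 of 22, among them the fit without litter A (1.00, adjusted p = 0.168). Irf1, the factor induced by interferon gamma, averaged 6.72 ± 0.42 CPM in controls against 7.24 ± 0.697 CPM in knockouts and did not pass (log2 fold change 0.11, SE 0.09, adjusted p = 0.423).

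The 14 antiviral effectors split into 5 that were higher (35.7%; 18.1% of all genes tested), 3 lower (21.4%; 17.1% of all genes tested) and 6 that did not pass, with a median log2 fold change of 0.21. Oasl2 (chr5:114896936-114912234), of the family of oligoadenylate synthetases and their relatives, measured 1.10, 1.14, 0.797, 1.38 and 0.899 CPM in controls 1 to 5 and 2.99, 3.68, 5.64, 3.39 and 2.79 CPM in knockouts 1 to 5. Every knockout lay above every control, and knockout 3 was the highest. The log2 fold change was 1.80 (SE 0.22, adjusted p = 6.86e-05). Of its relatives, Oas1a (log2 fold change 1.14, SE 0.25, adjusted p = 0.00346) and Oas2 (1.50, SE 0.44, adjusted p = 0.0188) were higher, each at a mean under 1 CPM in both groups, and Oas3 did not pass (0.35, SE 0.22, adjusted p = 0.259). Oas2 rested on 28 counts over the controls and 77 over the knockouts, with 1 of 5 controls and 5 of 5 knockouts at the level of the count filter. Its call was lost without knockout 2 (1.28, adjusted p = 0.0550) and without litter A (1.87, adjusted p = 0.0538), and that of Oas1a without litter A (1.12, adjusted p = 0.0553). Of Oas1a's exon sequence, 68.8% is shared with other genes in runs of 31 bases, so its counts depend on how the authors' tool split such reads.

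Bst2 (chr8:71534255-71537456), which encodes tetherin, a membrane protein that holds back budding virus, measured 1.53, 1.35, 1.43, 1.46 and 1.69 CPM in controls and 4.41, 5.19, 4.77, 4.56 and 4.98 CPM in knockouts. The groups were far apart and each was tight. In the test, Bst2 had a log2 fold change of 1.68 (SE 0.11, adjusted p = 6.48e-07).

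The Ifitm genes, which lie side by side on chromosome 7 and encode membrane proteins that block virus entry, went in opposite directions. Ifitm3 (chr7:141009586-141010770) measured 12.0, 10.5, 10.9, 12.1 and 11.8 CPM in controls and 36.8, 42.0, 36.2, 30.4 and 29.8 CPM in knockouts. All 5 knockouts were above all controls, with a log2 fold change of 1.61 (SE 0.10, adjusted p = 2.18e-07). Ifitm2 (chr7:140954837-140955987) measured 109, 113, 114, 117 and 127 CPM in controls and 100, 98.8, 97.2, 99.3 and 98.6 CPM in knockouts. All knockouts were below all controls, by a small step, with a log2 fold change of -0.23 (SE 0.04, adjusted p = 0.0011). Ifitm1 (chr7:140967221-140969825) measured 21.6, 20.9, 21.2, 21.7 and 22.2 CPM in controls and 19.5, 18.5, 14.1, 13.4 and 14.3 CPM in knockouts. Both litter A knockouts were nearest to the controls, and none reached them. Its log2 fold change was -0.43 (SE 0.10, adjusted p = 0.00609).

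Per kilobase of exon, Ifitm2 had the highest level of all 38 members, at 177 CPM per kb in controls and 151 in knockouts. Ifitm3 went from 16.9 to 51.7 CPM per kb, and Ifitm1 from 19.7 to 14.6 CPM per kb, so Ifitm3 passed Ifitm1 in the knockouts. Of Ifitm2's exon sequence, 55.5% is shared with other genes in runs of 31 bases, and of Ifitm3's 20.5%.

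The Ifit genes, whose proteins bind foreign RNA, did not rise. Ifit3 (chr19:34583531-34588731) measured 1.27, 1.44, 2.10, 0.835 and 1.42 CPM in controls and 0.623, 0.974, 0.543, 0.438 and 1.13 CPM in knockouts. The groups overlapped, with knockouts 2 and 5 above control 4. For Ifit3 the log2 fold change was -0.92 (SE 0.30, adjusted p = 0.0316), and the call was lost in 9 of 22 alternatives, among them the fit without litter A (-1.03, adjusted p = 0.148). It shares 61.8% of its exon sequence with other genes, mostly its copy Ifit3b, which fell by 1.89 on the log2 scale (SE 0.34, adjusted p = 0.000986). Ifit1 (-0.20, SE 0.36, adjusted p = 0.718) and Ifit2 (0.08, SE 0.12, adjusted p = 0.664) did not pass.

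Rsad2 (chr12:26442746-26456452), which encodes viperin, an enzyme that makes an antiviral nucleotide, measured 1.42, 0.696, 0.980, 1.02 and 0.877 CPM in controls and 0.822, 2.18, 4.86, 1.24 and 1.58 CPM in knockouts. Knockout 3 was highest and knockouts 1 and 4 lay among the controls. The log2 fold change of 1.08 (SE 0.41) did not pass (adjusted p = 0.0603), passed in DESeq2 (1.09, adjusted p = 0.0286), and was 0.55 without knockout 3. Eif2ak2, which encodes the RNA-activated kinase PKR, was at 38 ± 2.54 and 36.4 ± 2.84 CPM in controls and knockouts, and Adar, the RNA-editing enzyme gene, at 66.6 ± 4.64 and 63 ± 4.21 CPM. Neither passed the test, at log2 fold changes of -0.06 (SE 0.07, adjusted p = 0.494) and -0.08 (SE 0.06, adjusted p = 0.343).

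**Figure D3:**
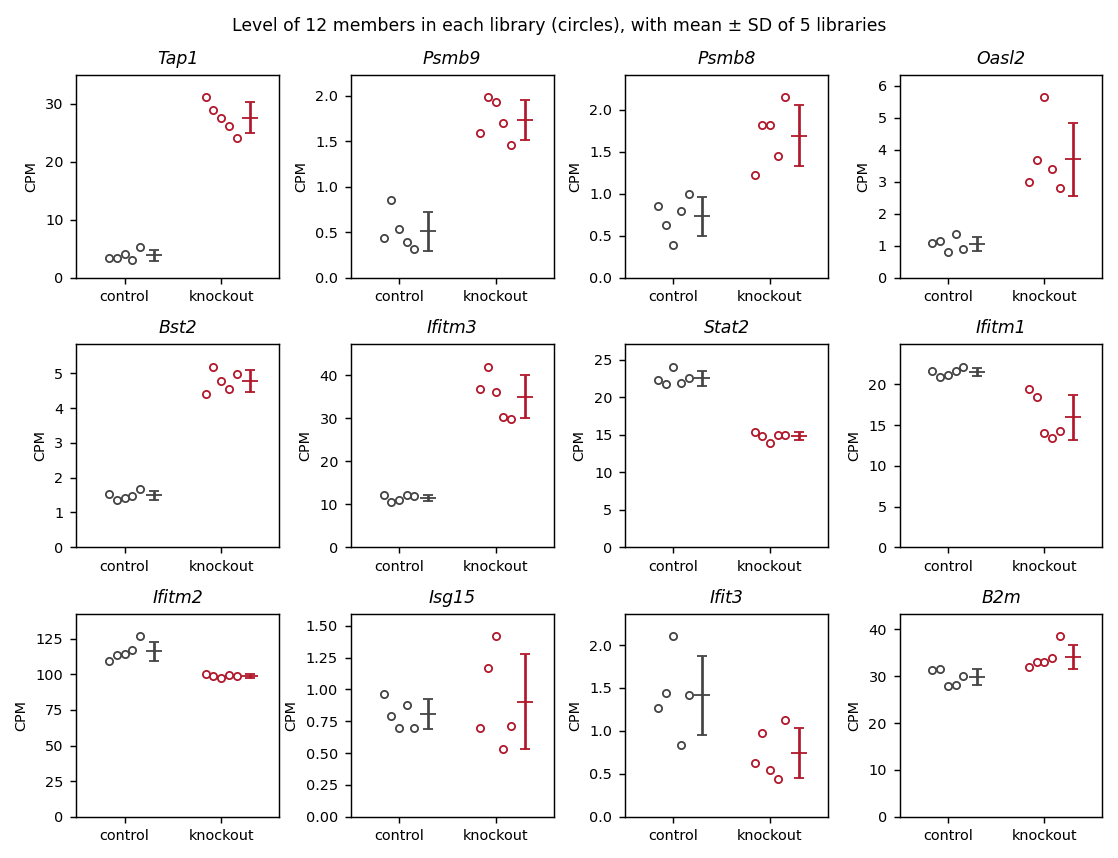
CPM of 12 members in each library (circles), with the mean and SD of 5 libraries per group beside them, each panel on its own linear axis from 0. The groups stand apart for Tap1, Psmb9, Psmb8, Oasl2, Bst2 and Ifitm3, are reversed for Stat2, Ifitm1 and Ifitm2, and overlap for Isg15 and Ifit3, with a small step between groups for B2m.

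Isg15 encodes a ubiquitin-like protein that is attached to other proteins, and is among the genes most strongly induced by interferon. Isg15 (chr4:156199424-156200818) measured 0.964, 0.789, 0.694, 0.877 and 0.697 CPM in controls 1 to 5 and 0.698, 1.16, 1.42, 0.530 and 0.709 CPM in knockouts 1 to 5. Knockouts 2 and 3 lay above the controls, knockout 4 below them and the other 2 among them. In the test, Isg15 had a log2 fold change of 0.16 (SE 0.26, adjusted p = 0.688), and -0.047 without knockout 3. Trim25 (chr11:88999376-89020293), a ligase that attaches ISG15 and that ubiquitinates RIG-I, measured 8.85, 8.64, 9.84, 9.64 and 11.5 CPM in controls and 16.7, 16.5, 20.4, 16.1 and 15.8 CPM in knockouts. Every knockout was above every control, with a log2 fold change of 0.82 (SE 0.10, adjusted p = 5.18e-05). Usp18, the protease that removes ISG15 and dampens the receptor, rose from 0.304 ± 0.0957 to 0.572 ± 0.0658 CPM, a log2 fold change of 0.91 (SE 0.24, adjusted p = 0.0123) on 70 and 124 counts per group, a call lost without litter A.

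All 7 other interferon-induced members were higher (100%; 18.1% of all genes tested), with a median log2 fold change of 1.10. Both the count and the median include Ifi27, whose own value is the median and which was tested through the knockouts. Parp14 (chr16:35832874-35871544), an ADP-ribosyltransferase, measured 1.77, 1.93, 1.80, 1.75 and 2.18 CPM in controls and 4.98, 4.73, 5.76, 4.17 and 4.30 CPM in knockouts. The groups were well apart, with a log2 fold change of 1.34 (SE 0.13, adjusted p = 9.67e-06). Its neighbours Parp9 (0.48, SE 0.11, adjusted p = 0.00396) and Dtx3l rose less. Dtx3l (chr16:35926511-35939151), a ubiquitin ligase that works as a pair with PARP9, measured 8.21, 8.40, 7.13, 8.31 and 7.67 CPM in controls and 9.89, 9.62, 9.41, 10.4 and 9.07 CPM in knockouts. All knockouts were above all controls by a small step, with a log2 fold change of 0.29 (SE 0.08, adjusted p = 0.0137). Parp9 and Dtx3l lie on opposite strands and share 9.4% and 8.0% of their exon bases, and both calls were lost without litter A.

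Xaf1 (chr11:72301629-72313733), whose protein antagonizes the apoptosis inhibitor XIAP, measured 1.12, 1.51, 1.27, 1.27 and 1.24 CPM in controls and 2.09, 3.15, 6.34, 2.63 and 2.21 CPM in knockouts. All knockouts were above all controls, and knockout 3 stood far above the other 4. Its log2 fold change was 1.35 (SE 0.29, adjusted p = 0.00299). Ifi35 (chr11:101448407-101458698) measured 1.60, 1.90, 1.86, 1.31 and 1.48 CPM in controls and 2.49, 3.55, 2.99, 1.89 and 2.77 CPM in knockouts. Only knockout 4 fell within the control range, by a small margin. The log2 fold change of Ifi35 was 0.75 (SE 0.18, adjusted p = 0.00686), a call lost without litter A. Rtp4 rose from 0.526 ± 0.176 to 1.19 ± 0.21 CPM, a log2 fold change of 1.16 (SE 0.25, adjusted p = 0.00298) with no overlap. Ifi27 went from 0.28 ± 0.184 to 0.606 ± 0.138 CPM, a log2 fold change of 1.10 (SE 0.39, adjusted p = 0.0451) with overlapping groups. It had 2 of 5 controls and 5 of 5 knockouts at the level of the count filter, so it was tested through the group where it is high. Its call was lost in 12 of 22 alternatives.

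Class I presentation held the largest change of the 38. Tap1 (chr17:34187553-34197225), a chain of the peptide transporter, measured 3.42, 3.32, 4.15, 3.05 and 5.22 CPM in controls 1 to 5 and 31.2, 28.9, 27.6, 26.1 and 24.1 CPM in knockouts 1 to 5. The lowest knockout stood far above the highest control. The log2 fold change was 2.85 (SE 0.14, adjusted p = 3.44e-08), a 7.20-fold rise, and lay between 2.65 and 2.98 in all 22 alternatives. Per kilobase Tap1 went from 0.699 to 5.04 CPM. Its partner Tap2 averaged 1.3 ± 0.319 CPM in controls against 1.43 ± 0.816 CPM in knockouts and did not pass (log2 fold change 0.14, SE 0.35, adjusted p = 0.792). TAP1 is also known as a target of p53, and Cdkn1a, the best known p53 target and a gene looked at after its values were seen, went from 16.8 ± 2.79 to 224 ± 16.6 CPM, a log2 fold change of 3.74. The part of p53 in the Tap1 level was not tested.

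Psmb9 lies head to head with Tap1 and encodes an immunoproteasome subunit. Psmb9 (chr17:34181987-34187764) measured 0.438, 0.859, 0.531, 0.397 and 0.315 CPM in controls and 1.60, 1.99, 1.93, 1.70 and 1.46 CPM in knockouts. Every knockout lay above every control, on 116 and 376 counts per group. For Psmb9 the log2 fold change was 1.77 (SE 0.25, adjusted p = 0.000172). Psmb8 (chr17:34197721-34201454), the next immunoproteasome gene in the cluster, measured 0.854, 0.627, 0.388, 0.793 and 0.989 CPM in controls and 1.22, 1.81, 1.81, 1.45 and 2.15 CPM in knockouts. The groups did not overlap, with a log2 fold change of 1.21 (SE 0.25, adjusted p = 0.00242). Psmb9 and Tap1 share 5.8% and 3.9% of their exon bases on opposite strands, and the use of strand in counting was not given in the sources used here.

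The 225 bases between the RefSeq start sites of Psmb9 and Tap1 are shown because the pair that rose together is transcribed outward from them. They lie at chr17:34187331-34187555 on GRCm38.p6 and are read 5′ to 3′ on the plus strand, toward Tap1. The start sites are 226 bases apart, and neither gene's promoter window holds the ISRE or GAS letters given above, which says only that these letters are not in the windows.
Psmb9 to Tap1: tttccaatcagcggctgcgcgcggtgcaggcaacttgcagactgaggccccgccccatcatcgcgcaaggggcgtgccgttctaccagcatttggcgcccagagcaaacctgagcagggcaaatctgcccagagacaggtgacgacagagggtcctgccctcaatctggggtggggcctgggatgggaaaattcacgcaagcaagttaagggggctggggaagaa

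The surface chains had smaller fold changes than Tap1, Psmb8 and Psmb9. B2m (chr2:122147686-122153083), the light chain of every class I molecule and the highest member of this group per kilobase (34.6 CPM per kb in controls and 39.7 in knockouts), measured 31.3, 31.5, 27.9, 28.1 and 30.1 CPM in controls and 32.0, 33.1, 33.1, 34.0 and 38.5 CPM in knockouts. All knockouts were above all controls by a small step. In the test, B2m had a log2 fold change of 0.20 (SE 0.06, adjusted p = 0.0292), and the adjusted p was 0.0337 with litter as a block and 0.0523 with the replicate number as a block. The call of B2m was lost in 8 of 22 alternatives, among them the fits without control 3, 4 or 5 or knockout 4 or 5 (0.15 to 0.20, adjusted p 0.0516 to 0.0681). H2-D1 (chr17:35262730-35267499), a class I heavy chain, measured 6.55, 7.17, 6.03, 6.49 and 11.1 CPM in controls and 10.4, 10.6, 14.5, 10.3 and 10.8 CPM in knockouts. Control 5 stood above 4 of the knockouts and apart from the other controls. The log2 fold change was 0.60 (SE 0.17, adjusted p = 0.0144), a call lost without litter A. H2-K1 (chr17:33996017-34000347), the other classical heavy chain measured, gave 1.56, 1.74, 2.78, 2.27 and 2.59 CPM in controls and 4.34, 3.23, 2.65, 2.28 and 3.09 CPM in knockouts. Knockout 1 was highest and knockouts 3 and 4 lay among the controls. Its log2 fold change of 0.51 (SE 0.21) did not pass (adjusted p = 0.0768) and was 0.07 without litter A. The 2 heavy chains share 26.9% (H2-D1) and 22.8% (H2-K1) of their exon sequence with other genes in runs of 31 bases.

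The summed level of the 7 class I members was 42.2 to 51.8 CPM in controls and 76.6 to 83.1 CPM in knockouts. Most of this gain was Tap1. The mean of the sum went from 45.8 to 81.0 CPM, and that of Tap1 alone from 3.83 to 27.6 CPM. Of 20 other class I presentation genes, 6 were higher (30%; 18.1% of all genes tested), 5 lower (25%; 17.1% of all genes tested) and 9 did not pass. Their median log2 fold change was 0.10. Nlrc5, the transactivator of class I genes, rose from 0.0988 ± 0.0489 to 0.398 ± 0.193 CPM, a log2 fold change of 1.99 (SE 0.41, adjusted p = 0.00253). It had 23 counts over the controls and 89 over the knockouts, with 0 of 5 controls and 5 of 5 knockouts at the level of the count filter. Nlrc5, 1 of the 6 called higher, was therefore tested only through the group where it is high. Fcgrt, a relative of class I that carries IgG, rose by 1.15 (SE 0.15, adjusted p = 0.000106), and Tapbpl, a peptide editor, by 0.58 (SE 0.09, adjusted p = 0.000381). Psmb10, the remaining immunoproteasome subunit gene, rose from 4.47 ± 0.311 to 5.88 ± 0.62 CPM, a log2 fold change of 0.39 (SE 0.10, adjusted p = 0.011), a call lost without litter A. Psme2, a subunit of the proteasome activator that interferon gamma raises, fell by 0.28 on the log2 scale (SE 0.06, adjusted p = 0.0032). The constitutive catalytic subunits that the immunoproteasome replaces gave 0 of 3 called, against 35.2% of all genes tested in either direction. A list of 3 genes is too short to be set against that share. Psmb5 stood at 108 ± 5.15 and 99.8 ± 5.53 CPM, a log2 fold change of -0.11 (SE 0.05, adjusted p = 0.0895).

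A list of 32 other interferon-stimulated genes, of which 30 were tested, gave 16 higher (53.3%; 18.1% of all genes tested), 1 lower (3.33%; 17.1% of all genes tested) and 13 not passing. Their median log2 fold change was 0.69. Among the higher, Ifi44 and Epsti1 were under the level of the count filter in at least 3 of 5 controls. They were therefore tested mainly through the group where they are high. Lgals3bp, a secreted glycoprotein gene, rose from 3.07 ± 0.721 to 13.5 ± 2.06 CPM, a log2 fold change of 2.13 (SE 0.17, adjusted p = 1.72e-06). Slfn2, a regulator of leukocyte growth, rose by 1.91 (SE 0.17, adjusted p = 5.75e-06), Lgals9, a galectin, by 1.57 (SE 0.14, adjusted p = 4.52e-06), and Zc3hav1, an antiviral RNA-binding protein, by 0.91 (SE 0.15, adjusted p = 0.000578). The 1 that fell was Ifit3b, with 5 of 5 controls and 2 of 5 knockouts at the level of the count filter. All lists of the pathway outside the members together held 122 genes, of which 97 were tested. Of these, 35 were higher (36.1%; 18.1% of all genes tested), 11 lower (11.3%; 17.1% of all genes tested) and 51 did not pass. The 35 include Nlrc5, Ifi44 and Epsti1, and the 11 include Ifit3b, so both counts rest in part on the filter. Their median log2 fold change was 0.19.

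Class II presentation genes, which are expressed mainly by macrophages, dendritic cells and B cells, gave 4 higher (57.1%; 18.1% of all genes tested), 0 lower (17.1% of all genes tested) and 3 not passing of 7 tested. H2-Eb1, a class II beta chain, rose from 0.263 ± 0.12 to 1.72 ± 0.218 CPM, a log2 fold change of 2.70 (SE 0.31, adjusted p = 4.23e-05), with 4 of 5 controls at the level of the count filter. Cd74, the class II chaperone, rose by 1.23 (SE 0.31, adjusted p = 0.00851), and was 0.79 with an adjusted p of 0.180 without litter A. The summed class II level was 3.69 to 5.62 CPM in controls and 6.79 to 8.53 CPM in knockouts.

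Markers of several cell types also differed between the groups, in both directions. Of 22 macrophage markers, 19 were higher, 2 lower (Mertk and Cd14) and 1 did not pass (Itgam). These are 86.4% higher and 9.09% lower, against 18.1% and 17.1% of all genes tested. Their median log2 fold change was 1.68, and 0 were at 0 in every library. Csf1r, the macrophage growth factor receptor, rose from 12.8 ± 1.63 to 49.7 ± 2.22 CPM, a log2 fold change of 1.96 (SE 0.08, adjusted p = 1.22e-08). Adgre1, which encodes F4/80, rose by 2.64 (SE 0.10, adjusted p = 6.51e-09), and C1qb, a complement gene, by 2.19 (SE 0.08, adjusted p = 5.4e-09). The part of macrophage RNA in the levels of the members was not tested.

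Markers of other leukocytes were low, with a summed level of 5.04 to 6.86 CPM in controls and 6.06 to 10.3 CPM in knockouts, 5 of 12 tested and 1 of these higher. Among all genes tested 18.1% were higher and 17.1% lower. Of 11 endothelial markers 8 were higher (72.7%) and 1 lower (9.09%), with sums of 317 to 371 CPM in controls and 380 to 441 CPM in knockouts. Of 12 erythroid markers 11 were higher (91.7%) and 0 lower (summed 3058 to 3620 and 3832 to 7984 CPM), and of 10 limb ectoderm markers 6 were higher (60%) and 0 lower (summed 300 to 496 and 538 to 643 CPM). Of 9 limb mesenchyme markers 0 were higher, 4 lower (44.4%) and 5 did not pass. Their log2 fold changes ran from -1.87 to 0.27, with a median of -0.21. Among the 4 lower, Pdgfra, a receptor of mesenchymal cells, fell by 1.87 on the log2 scale. Tbx5, the forelimb transcription factor gene, fell by 1.09, and Prrx1, whose promoter drives the Cre, by 0.96. The part of these shifts in the members' levels was not tested.

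**Figure D4:**
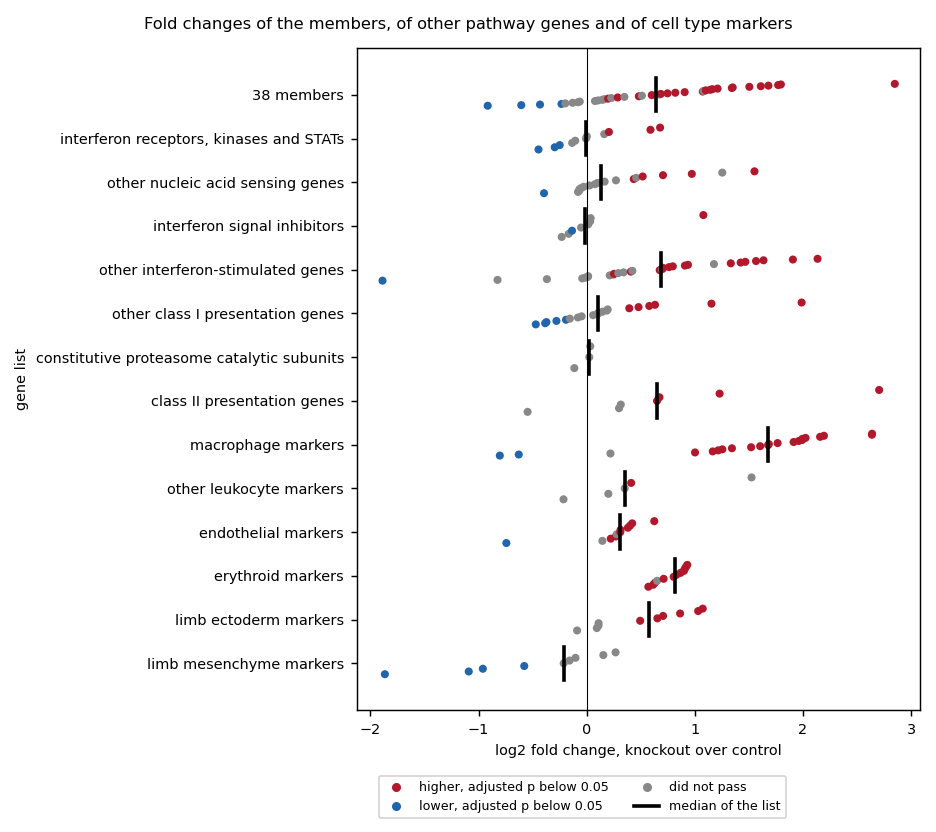
Log2 fold change, knockout over control, of each tested gene (points) of the members, of the other pathway lists and of the cell type marker lists, with a bar at each list's median. The members have a median of 0.64, the other interferon-stimulated genes 0.69, the receptors, kinases and STATs -0.01, the macrophage markers 1.68 and the limb mesenchyme markers -0.21.

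Knockout 3 had the highest level of the 5 knockouts in 13 of the 38 members, among them Oasl2, Xaf1, Rsad2, Trim25 and H2-D1. Knockouts 1, 2, 4 and 5 were highest in 7, 8, 2 and 8 members. The lowest knockout was number 4 in 12 members and number 5 in 13.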

How the data were processed

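Total RNA of 10 libraries was measured. The authors deposited estimated counts per Ensembl gene, and the submitters' processing notes name Salmon 0.8.2, DESeq2 1.16.1, R 3.4.1 and the build mm10 without saying what each did. Only 0.06% of these expected counts, as deposited, were whole numbers (tolerance 1e-06), and all were rounded before testing. A second table deposited by the authors under the name FPKM contained a signal that was not FPKM but each library's rounded counts over a constant (100.00% of values within 0.01), and was tried as an alternative after log2 transformation. The use of strand in counting was not given in the sources used here.

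Symbols, positions and exon lengths came from GENCODE M21 (GRCm38, the assembly of mm10), which gave a symbol for 47310 IDs and left 419 without. The filter was filterByExpr (at least 10 counts, total of at least 15). TMM scaling and the quasi-likelihood test of edgeR 4.0.16 in R 4.3.3 (glmQLFit, glmQLFTest) followed, comparing knockout with control without covariates, adjusted by Benjamini-Hochberg over 20562 genes. CPM values use the TMM-scaled library and are given as mean ± SD with n = 5. The standard error was taken as the size of the log2 fold change over the root of its F statistic. The biological coefficient of variation was 16.4%. On simulated data for this comparison (20562 genes), 10, 33, 44 and 50 of 50 genes changed by 1.25-, 1.5-, 2- and 4-fold were recovered, and 7 unchanged genes were called. The changed genes were drawn only from genes with a mean of at least 1 CPM, so recovery at lower levels was not measured. Limits at 3 counts cover counting error only. No 2 libraries of a group agreed within sampling noise (lowest chi-square per degree of freedom 17.69).

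Alternatives were DESeq2 1.42.0, limma 3.58.1 on the second table (pseudocounts 1 and 0.1), other scalings, no filter, blocks, a somite stage term, and leaving out libraries or litter A. Per the labels, numbers 3, 4 and 5 each mark a shared litter, while numbers 1 and 2 both lie in litter A and are not paired within it, so litter is the block that the labels give. Deviations of same-numbered libraries from the group means correlated at -0.0133, 0.155, -0.0245, 0.0416 and 0.200 for numbers 1 to 5. The members and the gene lists were chosen with earlier results of these data known. Values per library are given for the 14 members with the largest changes past the threshold and at least 1 CPM on average, for the highest per kilobase in each role, and for Irf7, Irf9, Stat2, Isg15, B2m, H2-K1, H2-D1, Tap1, Psmb8 and Psmb9. Ifitm1 and Rsad2 were added after their values were seen. Up to 4 genes per list with the smallest adjusted p were named, plus a few set by name, and some of these are not reported here. Promoter sequences are from RefSeq, GRCm38.p6.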

Additional observations from a re-analysis of the deposited data

Results flagged for a closer look

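A library was singled out where its gap to the nearest other library of its group exceeded 0.71 of the group's range, which chance gives in about 1 in 20 groups. Of 166 groups, 12 met it. Among the members, Dhx58 was 2.19 CPM in knockout 1 against 3.34 to 3.67 CPM in the other knockouts, and Oas1a was 1.27 CPM in knockout 5 against 0.724 to 0.852 CPM. In knockout 3, Trim25 was 20.4 CPM (others 15.8 to 16.7), Xaf1 was 6.34 CPM (2.09 to 3.15) and H2-D1 was 14.5 CPM (10.3 to 10.8). In control 5, H2-D1 was 11.1 CPM (6.03 to 7.17).

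Among other genes named or used as markers, Fcgrt was 7.15 CPM in control 5 (other controls 4.23 to 4.92), and Tek, an endothelial receptor gene, was 23.5 CPM in control 3 (16.3 to 18.4). Adgre1 was 20.4 CPM in knockout 5 (16.4 to 17.3), and Trp63, an ectoderm gene, was 72.3 CPM in knockout 1 (59.0 to 62.5). Pdgfra was 412.6 CPM in control 4 (505 to 525) and 125.9 CPM in knockout 2 (135.7 to 138.4).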

How the results depend on the processing

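Of the 25 members called, 13 were called under each of 22 alternatives: Oasl2, Bst2, Ifitm3, Trim25, Rtp4, Xaf1, Parp14, Tap1, Psmb8 and Psmb9 as higher, and Stat2, Ifitm1 and Ifitm2 as lower. The other 12 lost the call in at least 1, and Irf9, Ifit2, Rsad2 and H2-K1 passed in at least 1. Members higher were 18 to 20 and members lower 3 to 4 when each library was left out in turn. With the replicate number as a block, 19 members were higher and 4 lower, since Dhx58 and B2m lost the call and no other member's call changed; with litter as a block the counts were 21 and 4. With the controls labelled as without Cre, 17 were higher and 3 lower, and without the 2 libraries high in Xist 18 and 3. Without litter A, members higher fell to 12, pathway list genes higher to 17 (from 35) and lower to 7 (from 11), and all genes higher to 2002 (from 3719) and lower to 2021 (from 3526), with fewer libraries. Pathway list genes lower were also 7 with the controls without Cre, and 7 to 10 (higher 28 to 35) with each library left out, 7 without knockout 4. Members with at most 20% of exon sequence shared, a subset chosen after seeing the data, held 2 of the lower calls, and the 35 members at the filter level in every control (all but Oas2, Usp18 and Ifi27), likewise, 18 higher and 4 lower. Among members that did not pass, the sign turned for Ifit1 (0.10 without control 2, and -0.48 to 0.10 over single libraries left out), Isg15 (-0.047 without knockout 3, and -0.047 to 0.30) and Tap2 (-0.23 without knockout 5, and -0.23 to 0.33). Tap2 was also at -0.0068 and -0.0093 in limma with pseudocounts 1 and 0.1, and at -0.10 with somite stage. The causes were not tested. Scaling by library size alone moved the share of calls that were higher from 51.3% to 62.2% and the median log2 fold change of all genes from -0.001 to 0.051. Depth limits the members under 1 CPM, such as Oas2 with 28 counts over the controls.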
